A study of Mus musculus with 51 samples.

Results

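The genes described here are 10 immediate early genes out of 24564 genes in the count table: Fos, Fosb, Fosl2, Jun, Junb, Egr1, Egr2, Egr3, Nr4a1 and Arc. They were chosen by name, with earlier results of these data known. They were followed in 51 libraries of neurons isolated by FACS from the midbrain of adult mice and sequenced by Smart-seq2, a full-length cDNA method for small inputs. The comparison asks what changes when neurons lack functional Polycomb repressive complex 2 (PRC2), the enzyme complex that places a repressive methyl mark on histone H3 and of which Eed is a core subunit. Dopaminergic neurons (mDA) came from the strain DatCreEed: 10 mutant and 9 wt libraries at 4 months, and 8 mutant and 8 wt libraries at 8 months. Serotonergic neurons (5HT) came from the strain SertCreEed: 4 mutant and 4 wt libraries at each of 4 and 8 months. The strain names refer to Cre recombinase under the dopamine transporter gene (Dat) or the serotonin transporter gene (Sert), so strain and neuron type cannot be told apart. The labels call each animal mutant or wt without listing its Eed alleles, do not say whether wt animals carry Cre, and do not give the sorting gate. Each library carries its own animal number, and these numbers (D192, S427) name libraries below.

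Immediate early genes are transcribed within minutes of a stimulus without new protein synthesis, through factors that are already present in the cell, such as CREB and SRF, which kinases activate. Their products are mostly transcription factors that switch on later genes, and neuroscientists read them as a record of recent neuronal activity. The same genes also respond to growth factors and to stress. FOS and JUN proteins pair to form AP-1, EGR proteins are zinc finger factors, NR4A1 is a nuclear receptor, and ARC is a cytoplasmic protein of synapses that controls the removal of glutamate receptors from the membrane.

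The start regions of 4 of the genes are printed because Fos and Nr4a1 passed the test in mutant mDA neurons at 8 months, Fosl2 passed it at 4 months, and Jun passed it in neither month. Each sequence runs from 250 bases before the annotated start to 50 bases after it, read 5′ to 3′ on the gene's own strand, from RefSeq on GRCm38.p6. Capitals mark the CRE half-site TGACG or its reverse complement CGTCA, the TATA box TATAAA and the MEF2 site, all searched on both strands. A CRE half-site was in 20.9% of all 32544 windows of this length, a TATA box in 13.6% and a MEF2 site in 3.16%. The full CRE TGACGTCA (1.8% of windows), the CArG box to which SRF binds (1.64%) and the AP-1 site TGANTCA (7.79%) were also searched, and none of the 4 windows held them.
Fos: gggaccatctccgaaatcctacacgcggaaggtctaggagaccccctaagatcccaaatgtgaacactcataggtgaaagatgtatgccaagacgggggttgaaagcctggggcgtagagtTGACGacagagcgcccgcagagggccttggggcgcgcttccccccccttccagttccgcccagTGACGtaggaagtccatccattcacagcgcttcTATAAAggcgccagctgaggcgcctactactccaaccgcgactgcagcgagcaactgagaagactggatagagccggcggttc
Nr4a1: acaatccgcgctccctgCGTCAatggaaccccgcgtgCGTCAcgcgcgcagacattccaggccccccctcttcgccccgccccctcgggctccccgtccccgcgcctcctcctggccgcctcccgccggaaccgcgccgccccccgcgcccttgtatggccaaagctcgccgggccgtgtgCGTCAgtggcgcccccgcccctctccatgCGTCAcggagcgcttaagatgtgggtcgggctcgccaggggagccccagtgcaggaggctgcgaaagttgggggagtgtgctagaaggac
Fosl2: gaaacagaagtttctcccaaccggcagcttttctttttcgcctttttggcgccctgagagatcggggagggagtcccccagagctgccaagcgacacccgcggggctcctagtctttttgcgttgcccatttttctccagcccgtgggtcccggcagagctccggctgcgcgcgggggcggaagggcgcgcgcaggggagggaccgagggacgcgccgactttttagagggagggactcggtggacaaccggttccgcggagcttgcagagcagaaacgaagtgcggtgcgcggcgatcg
Jun: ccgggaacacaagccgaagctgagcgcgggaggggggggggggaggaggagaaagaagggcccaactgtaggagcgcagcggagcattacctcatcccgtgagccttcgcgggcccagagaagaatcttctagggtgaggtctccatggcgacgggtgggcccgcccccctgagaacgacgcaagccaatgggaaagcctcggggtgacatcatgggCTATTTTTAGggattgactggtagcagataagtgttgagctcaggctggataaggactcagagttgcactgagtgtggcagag

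The Fos window (chr12:85473640-85473939, plus strand) held 2 CRE half-sites, which began 129 and 66 bases before the start, and a TATA box that began 33 bases before it. The Nr4a1 window (chr15:101266596-101266895, plus strand) held 4 half-sites, all on the opposite strand, and belongs to an annotated start that lies inside the gene's outer limits. The Fosl2 window (chr5:32136222-32136521, plus strand) held none of these motifs. The Jun window (chr4:95052173-95052472, minus strand) held a MEF2 site beginning 33 bases before the start. A match says only that the letters are present. A missing match covers only these letters inside these windows, and sites farther out or spelled otherwise were not searched. Windows of 7 of the 10 genes were taken, none of them for Arc, Egr1 or Egr3. Among those not printed, the window of Junb, which edgeR called in neither month, held a CRE half-site and a TATA box. The Fosb window held a half-site. Some Egr2 windows held half-sites and a CArG box, and another held no motif. Whether motifs go with calls was not tested. Any window on chromosome 18, where Egr1 lies, was left out of this choice. On the same build, Fos lies at chr12:85473890-85477274, Nr4a1 at chr15:101253902-101274795, Fosl2 at chr5:32136472-32157840, Jun at chr4:95049036-95052222 and Arc at chr15:74669081-74672570.

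The libraries held 1644460 to 12250492 counts over all genes, and levels below are in CPM: each library's counts scaled to a common total, on TMM-scaled library sizes. At these depths, a gene with 0 counts can still be present at up to 0.245 CPM in the deepest library and 1.82 CPM in the shallowest (3 counts, covering counting error only). The summed level of 10 dopaminergic identity genes was 3280 to 11100 CPM in mDA libraries, where 8 serotonergic identity genes summed to 14.2 to 106 CPM. In 5HT libraries the serotonergic genes summed to 1220 to 7740 CPM and the dopaminergic genes to 1560 to 4210 CPM. In 8-month 5HT mutants the serotonergic genes had 1220 to 1620 CPM and the dopaminergic genes 1560 to 1800 CPM. In wt of that age and neuron type these sums were 5420 to 6990 and 3840 to 4210 CPM, so both were lower in mutants. The dopaminergic list holds Slc18a2 and Ddc, which were called lower in these mutants and so are also read in 5HT libraries. Both identity lists moved with genotype at 8 months, as given beside those results. Eed itself averaged 22.5 ± 9.35 CPM in mutant and 13.4 ± 3.18 CPM in wt mDA neurons at 8 months (SD, n = 8 each), and it was not called lower in any comparison. A count over the whole gene does not separate a deleted part from the rest, so Eed counts do not check the genotype labels. At 4 months, 6 of the 10 mDA mutants were female (4 in set1, 2 in set2), and these 6 libraries stood apart. They had 1654667 to 3017630 counts, against 4094640 to 4587312 in the 4 male mutants, and their 14 activity-regulated effector genes summed to 510 to 633 CPM, against 857 to 1750 CPM. At 8 months, the mDA mutants D161, D170 and D176, which are the 3 males of set2, stood apart by markers of blood vessel cells, given below.

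In mDA neurons at 8 months, 4 of the 8 immediate early genes tested rose in mutants, namely Fos, Egr1, Nr4a1 and Arc, and none fell. Over all 15425 genes tested, 2.44% were called higher and 1.88% lower (4.32% in either direction) by edgeR's quasi-likelihood test at an adjusted p under 0.05. All 8 genes had a positive log2 fold change, with a median of 1.59, against 0.02 over all genes tested. Because the genes were chosen with earlier results of these data known, these shares and medians only describe them. Fosb and Egr2 had too few counts to be tested. Set3 held 2 wt libraries and no mutant at this age, so under its own set term these 2 added nothing direct to the genotype effect. Without set3, 4 immediate early genes were also called, where 4.69% of all genes tested were called. The plot of every library by group shows the levels that follow.

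**Figure D1:**
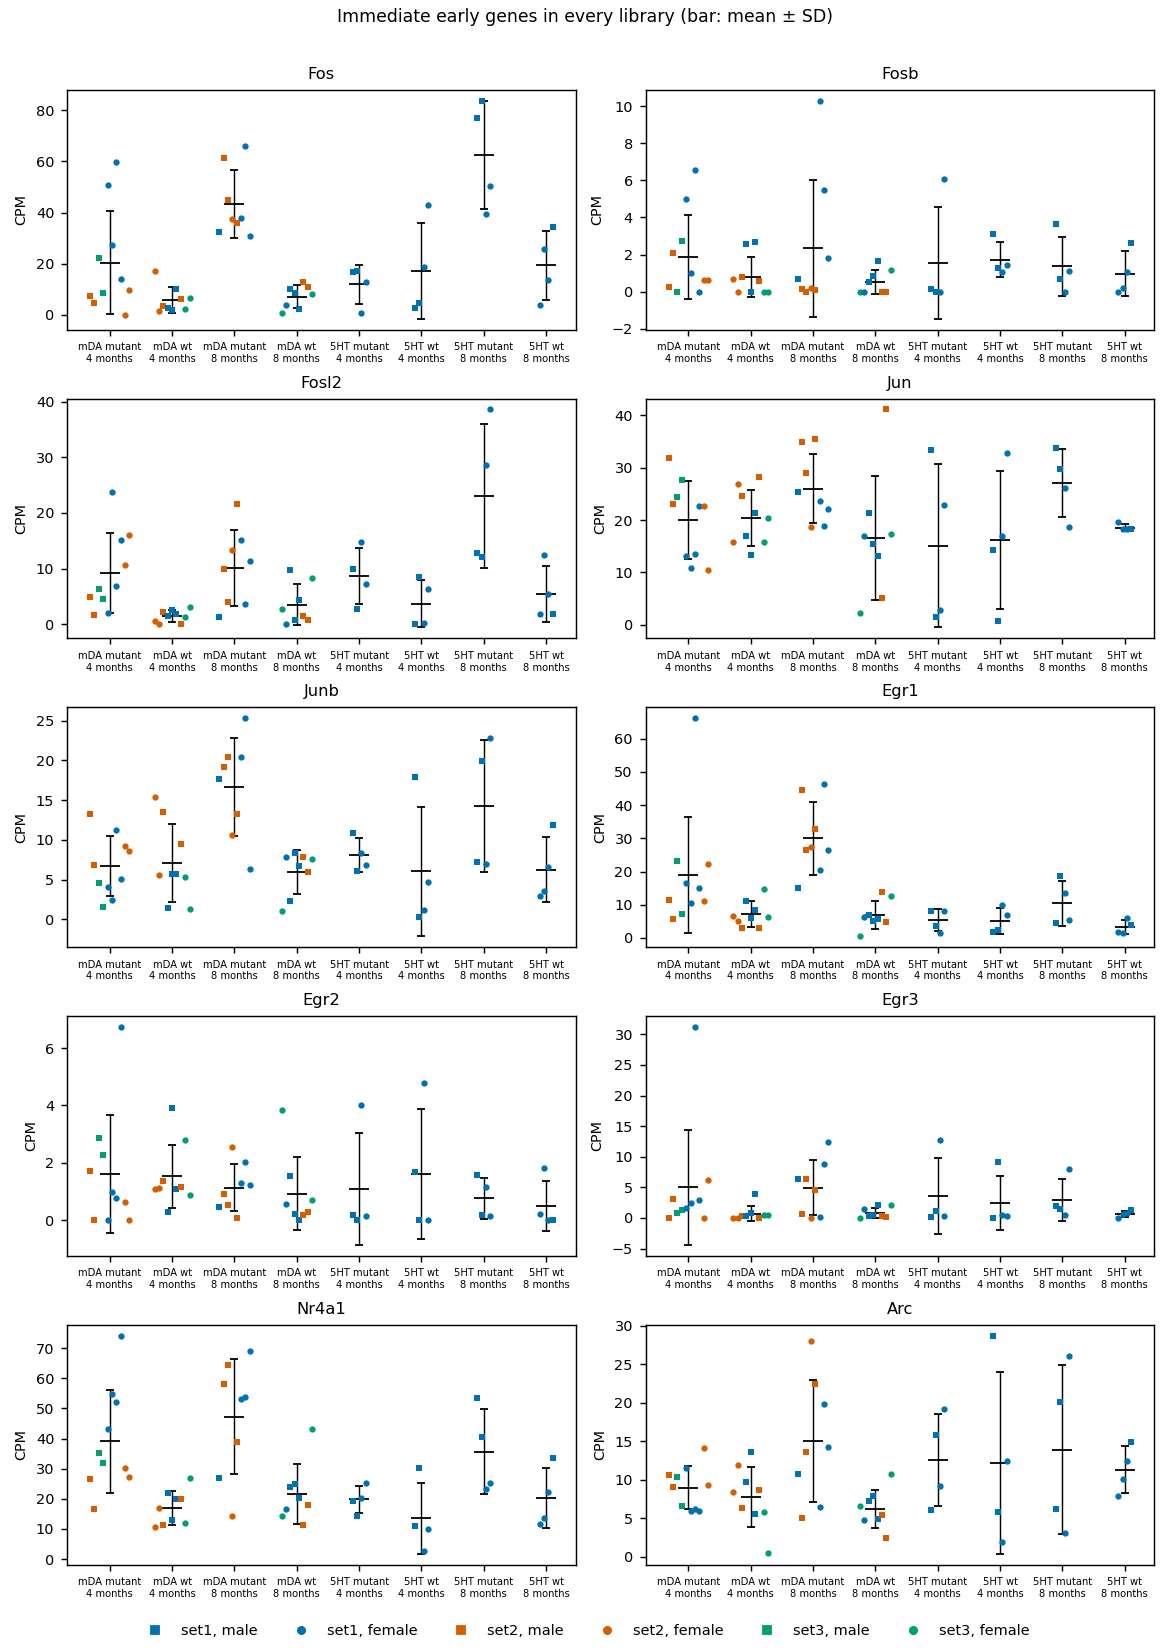
CPM of each of the 10 immediate early genes in all 51 libraries, by neuron type, age and genotype; colours give the sequencing set, squares males and circles females, and bars the mean ± SD (drawn below 0 where the SD exceeds the mean). Fos lies at 30.9 to 66.1 CPM in 8-month mDA mutants and at 0.547 to 13 CPM in their wt libraries; vertical scales differ between genes.

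Fos encodes the partner that gives AP-1 its short-lived peak after a stimulus. Its level at 8 months was lowest at 30.9, median 37.7 and highest at 66.1 CPM in 8 mDA mutants, against 0.547, 8.33 and 13 CPM in 8 wt libraries. Every mutant library was thus above every wt library. The share of genes tested whose mutant libraries all lay above all wt libraries was 0.882%. The fitted log2 fold change was 2.15 ± 0.61 (SE), a 4.45-fold higher level, with an adjusted p of 0.033 by edgeR's quasi-likelihood test. Within set1 the mutants had 30.9 to 66.1 CPM, against 2.45 to 10.1 CPM in wt (n = 4 each), and within set2 the 4 mutants had 35.8 to 61.4 CPM, against 10.9 and 13 CPM in the 2 wt libraries. The set1 libraries alone gave a log2 fold change of 2.75 (adjusted p = 0.000337), and the set2 libraries alone gave 1.97 (adjusted p = 0.0611, edgeR). Sexes were uneven in both sets, though both fits had a sex term. Set1 held 3 female and 1 male mutants against 1 female and 3 male wt animals. Set2 held 1 female and 3 male mutants against 2 male wt animals. Leaving out 1 library at a time gave 1.95 to 2.29, and without C45, C51, D276, C42, D107 or D147 the adjusted p rose past the threshold, to 0.0851 at most.

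Fosl2, which encodes a FOS relative without the strong activation domain of FOS, did not pass the test at this age. Its levels were 1.35, 10.6 and 21.6 CPM (lowest, median, highest) in mutants and 0, 2.09 and 9.79 CPM in wt, and the groups overlapped. Its log2 fold change was 1.69 ± 0.86 (adjusted p = 0.301, edgeR). Fosb, whose truncated product is long-lived, was at 0 to 10.3 CPM in mutants and at 0 to 1.64 CPM in wt, with 4 of the 8 wt libraries at 0. The set1 mutants carried the highest Fosb values, 1.82, 5.46 and 10.3 CPM in D282, D276 and D265. Without the filter on low counts, the Fosb log2 fold change was 3.07 (adjusted p = 0.176, edgeR).

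The JUN partners did not pass the test at 8 months. Jun, the main JUN subunit of AP-1, was at 18.6, 24.5 and 35.5 CPM in mutants and at 2.19, 16.2 and 41.1 CPM in wt, and its log2 fold change was 0.50 ± 0.31 (adjusted p = 0.418, edgeR). Junb, which pairs with FOS but activates more weakly than JUN, was at 6.36, 18.4 and 25.3 CPM in mutants and at 1.09, 7.2 and 8.33 CPM in wt. Only D282, the lowest mutant, fell into the wt range of Junb. The Junb log2 fold change of 1.31 ± 0.43 had an adjusted p of 0.07 by edgeR, and DESeq2 gave 1.31 with an adjusted p of 0.0267. The exons of Junb overlap those of Prdx2 on the opposite strand over 173 bases, and reads in that stretch may come from either gene, since no source used here says whether counting kept strand.

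Egr1, the zinc finger factor most often used beside FOS to mark active neurons, also separated the genotypes completely at 8 months. It was at 15.1, 27 and 46.5 CPM in mutants (lowest, median, highest) and at 0.547, 5.97 and 13.8 CPM in wt. Its log2 fold change was 1.76 ± 0.42, or 3.4-fold, with an adjusted p of 0.00667 by edgeR. The lowest mutant, C42, was only slightly above the highest wt library, D107. Egr3, a relative of EGR1 that recognises a similar DNA sequence, was at 0, 5.42 and 12.4 CPM in mutants and at 0, 0.337 and 2.09 CPM in wt. Of the mutants, 5 stood above all wt libraries and 3 lay within the wt range of Egr3. Its log2 fold change of 3.01 ± 1.04 had an adjusted p of 0.091 by edgeR and of 0.0334 by DESeq2. Egr2 stayed at 0.0793 to 2.54 CPM in mutants and 0 to 3.83 CPM in wt.

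Nr4a1 encodes an orphan nuclear receptor that is switched on mainly through its own transcription. At 8 months it was at 14.2, 53.4 and 68.9 CPM in mutants and at 11.2, 19.1 and 43.1 CPM in wt. The mutants D175, C42 and D176 and the wt library D833 made the groups overlap. The log2 fold change was 1.31 ± 0.30, or 2.49-fold, with an adjusted p of 0.00488 by edgeR. Arc was at 5.05, 13.9 and 28 CPM in mutants and at 2.46, 5.99 and 10.7 CPM in wt, with a log2 fold change of 1.49 ± 0.45 and an adjusted p of 0.049 by edgeR. The Arc groups also overlapped. Leaving out 1 library at a time gave Arc values of 1.24 to 1.64, and the call was lost without any of C45, C47, C51, D276, D282, D107, D147, D170 or D176 (adjusted p of 0.143 at most). Egr1 and Nr4a1 stayed called in all 16 such fits.

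**Figure D2:**
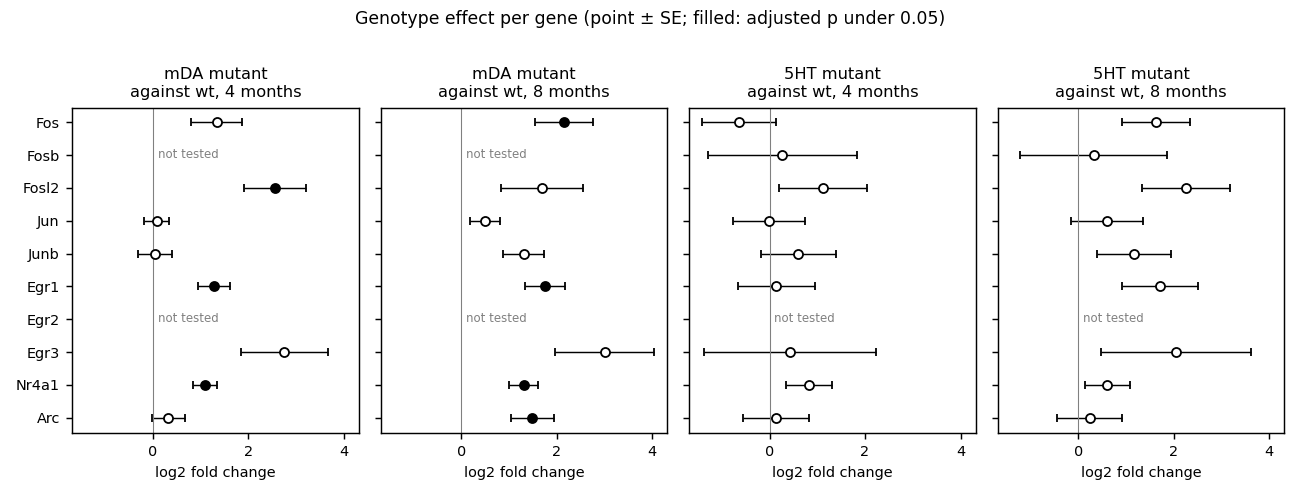
Log2 fold change of mutant over wt (horizontal axis) with its SE for each of the 10 genes, in mDA and 5HT neurons at 4 and 8 months; filled points passed an adjusted p under 0.05 by edgeR. Filled points stand at Fosl2, Egr1 and Nr4a1 for mDA at 4 months and at Fos, Egr1, Nr4a1 and Arc for mDA at 8 months, and 5HT has none.

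Divided by exon length, Fos had the highest mean of the 10 genes in 8-month mDA mutants, at 18.4 ± 5.66 CPM per kb, followed by Nr4a1 at 13.5 ± 5.42 and Jun at 8.15 ± 2.07 CPM per kb (SD, n = 8). In wt mDA neurons of that age the order was Nr4a1 at 6.14 ± 2.81, Jun at 5.2 ± 3.7 and Fos at 3.05 ± 1.89 CPM per kb. Neighbours in both orders differed by less than the larger SD of each pair, though Nr4a1 and Jun in mutants, and Jun and Fos in wt, differed by more than the smaller one. Fosl2, Fosb, Egr2 and Egr3 had the lowest means in both genotypes, at most 1.12 CPM per kb.

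Identity genes of the sorted neurons and markers of other cells moved with genotype in the same libraries. The 10 dopaminergic identity genes summed to 3280 to 4550 CPM in 8-month mDA mutants and 5530 to 10300 CPM in wt, without overlap, and 8 of the 10 were called lower. The 8 serotonergic identity genes summed to 49.2 to 106 CPM in these mutants and 14.2 to 65.5 CPM in wt, with overlap, and 2 of the 8 were called higher (Gata2 and Fev). The part of both lists in the immediate early gene values was not tested. Of 14 endothelial and mural markers, 2 were called higher in 8-month mDA mutants (Cldn5, a tight junction protein, with a log2 fold change of 4.55, and Slco1a4, a transporter of brain endothelium, with 3.28). Their summed level was 1230, 503 and 1100 CPM in D161, D170 and D176, against 15.6 to 38.5 CPM in the other 5 mutants and 14.3 to 67 CPM in wt. Astrocyte markers summed to 710 to 3270 CPM in mutants and 482 to 1060 CPM in wt, with 2 of 15 called higher. Oligodendrocyte markers summed to 594 to 1620 CPM in mutants and 591 to 1160 CPM in wt, with 1 of 15 called higher. No microglia marker of 10 tested was called, and no endothelial and mural marker was at 0 in every library of a group. The other 5 mutants had Fos levels of 30.9 to 66.1 CPM, all above the highest wt library. Without D161, D170 and D176, the log2 fold changes were 2.08 for Fos (adjusted p = 0.104), 1.53 for Egr1 (0.059) and 0.69 for Nr4a1 (0.223). That fit of 5 mutants and 8 wt libraries called 1 immediate early gene by edgeR, Arc, at 1.63 (adjusted p = 0.036), where 5.5% of all genes tested were called. The 2 wt libraries of set3 gave it no direct comparison, and its set2 part was 1 female mutant against 2 male wt libraries. In bulk samples such as these, fewer cells of a type and less RNA per cell cannot be told apart.

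**Figure D3:**
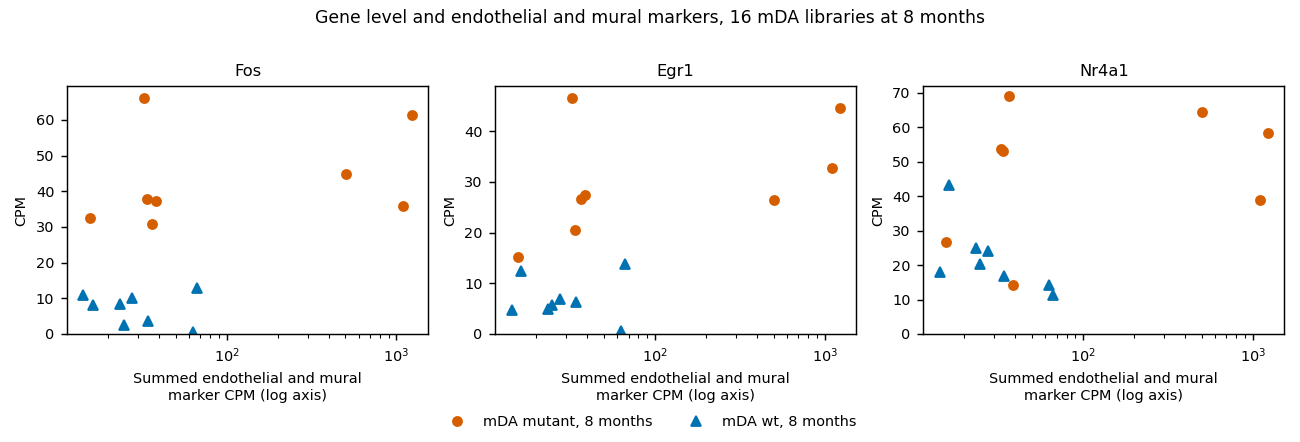
CPM of Fos, Egr1 and Nr4a1 (vertical) against the summed CPM of 14 endothelial and mural markers (horizontal, log axis) in the 8 mutant and 8 wt mDA libraries at 8 months. The 3 mutants at 503 to 1230 CPM of these markers lie to the right, with 35.8 to 61.4 CPM of Fos. The other 5 mutants have 30.9 to 66.1 CPM of Fos at 15.6 to 38.5 CPM of these markers. For Nr4a1, D176 (39 CPM) of the 3 and C42 (26.8 CPM) and D175 (14.2 CPM) of the other 5 lie within the wt range of 11.2 to 43.1 CPM. The part of these markers in the levels was not tested.

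In mDA neurons at 4 months, 3 of the 8 genes tested rose in mutants, namely Fosl2, Egr1 and Nr4a1, and none fell, where 0.577% of all genes tested were called higher and 0.596% lower (1.17% in either direction, or 89 and 92 genes, against 96 and 56 with RLE size factors). This background itself moved between 78 and 485 genes when 1 library was left out. It was 485 without C213, 332 without C214, and 78 to 106 without any 1 of D294, D296, D186, C240, C241, D237, D238, D942, C269 or C270. The median log2 fold change of the 8 genes was 1.19, against -0.01 over all genes tested. Fosl2 was at 1.68, 6.66 and 23.7 CPM in 10 mutants (lowest, median, highest) and at 0, 1.43 and 3.12 CPM in 9 wt libraries. The mutants C214 and D186 lay within the wt range of Fosl2. The log2 fold change of Fosl2 was 2.56 ± 0.65, or 5.91-fold (adjusted p = 0.0366, edgeR). Nr4a1 was at 16.6, 33.4 and 74.1 CPM in mutants and at 10.6, 17 and 27 CPM in wt, with a log2 fold change of 1.09 ± 0.25 (adjusted p = 0.0167, edgeR). Egr1 was at 5.66, 13.3 and 66.2 CPM in mutants and at 2.88, 6.25 and 14.8 CPM in wt, with a log2 fold change of 1.28 ± 0.34 (adjusted p = 0.046, edgeR). Leaving out 1 library at a time kept Nr4a1 called in 19 of 19 fits, against 9 for Fosl2 (2.35 to 2.88, adjusted p of 0.0919 at most) and 5 for Egr1 (1.02 to 1.44, adjusted p of 0.13 at most). Fosl2 was lost without D294, D296, D187, C240, C241, D237, D238, D942, C269 or C270. Egr1 kept its call only without D187, D226, C213, C214 or C270. None of the 8 genes separated the genotypes completely at this age, as 0.0778% of genes tested did with mutants above wt and 0% with mutants below.

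The Fos levels of the 4-month mDA mutants were not alike in the 3 sequencing sets. In set1 the mutants had 13.9, 27.2, 50.9 and 59.7 CPM, against 2.09, 2.58 and 9.92 CPM in wt. In set2 the mutants had 0, 4.61, 7.36 and 9.9 CPM, against 1.57, 3.48, 6.04 and 17.0 CPM in wt. In set3 the mutants had 8.62 and 22.3 CPM, against 2.14 and 6.47 CPM in wt. Mutants were thus above wt without overlap in set1, as were 6.91% of all genes tested, and in set3, as were 22.5%, and overlapped with wt in set2. Across the sets the log2 fold change was 1.34 ± 0.54 (adjusted p = 0.228, edgeR). It was 3.04 in set1 alone (adjusted p = 0.000692), -0.28 in set2 alone (0.965) and 1.83 in set3 alone (0.206).

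The set1 mutants at 4 months were all female and the set1 wt animals all male, so sex and genotype cannot be told apart in set1, and the same holds with the sexes exchanged in set3. Set2 had 2 females and 2 males of each genotype. Nr4a1 was at 43 to 74.1 CPM in mutants and 13.1 to 21.8 CPM in wt of set1, at 16.6 to 30.1 CPM in mutants and 10.6 to 20.1 CPM in wt of set2, and at 31.8 and 35.1 CPM in mutants and 12 and 27 CPM in wt of set3. Its log2 fold change was thus positive in each set, at 1.74, 0.80 and 0.77, but only set1 alone passed the test (adjusted p = 0.000611, 0.709 and 0.409, edgeR). Egr1 gave 1.79, 1.54 and 0.52 in the 3 sets (adjusted p = 0.0333, 0.569 and 0.759). Within set1 alone 4 of the genes were called, where 11.2% of all genes tested in that fit were called. Within set2 (0.0594% of all genes), within set3 (0.495%) and without the 4 set1 mutants (0.127%) none was, in fits that called few genes of any kind. The smaller groups also have less power, and whether the effects differ between sets was not tested.

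**Figure D4:**
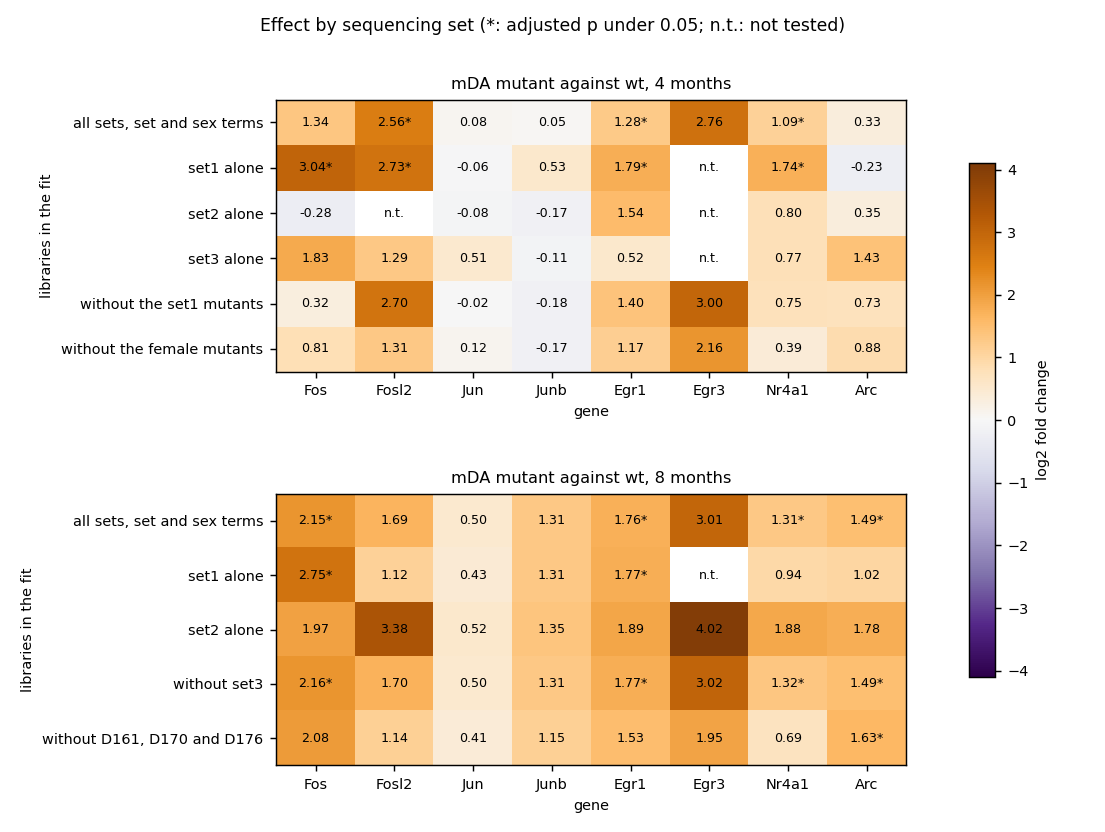
Log2 fold change of mutant over wt in mDA neurons for the 8 genes tested (columns), with all sets, single sets or subsets of the libraries in the fit (rows), at 4 months (top) and 8 months (bottom); asterisks mark an adjusted p under 0.05 by edgeR. At 4 months Fos ranges between -0.28 in set2 and 3.04 in set1, while at 8 months it is 2.75 in set1 and 1.97 in set2.

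The other genes at 4 months were not called by edgeR. Egr3 was at 0, 2.06 and 31.2 CPM in mutants and at 0, 0.387 and 3.97 CPM in wt, and its log2 fold change of 2.76 had an adjusted p of 0.122 by edgeR and of 0.0364 by DESeq2. The mutant D192 alone carried 31.2 CPM of Egr3 and 66.2 CPM of Egr1. Jun, Junb and Arc had log2 fold changes of 0.08, 0.05 and 0.33 (adjusted p = 0.932, 0.969 and 0.741, edgeR). Fosb was at 0 to 6.55 CPM in mutants and 0 to 2.65 CPM in wt, and Egr2 at 0 to 6.74 CPM in mutants and 0.286 to 3.92 CPM in wt. Without the 6 female mutants, which stood apart in depth, no gene of the 10 was called, in a fit that called 0.0787% of all genes, and the log2 fold change was 0.39 for Nr4a1, 1.17 for Egr1 and 1.31 for Fosl2. Endothelial and mural markers summed to 17.9 to 95.1 CPM in 4-month mutants and 21.7 to 43.7 CPM in wt, and none of the 14 was called. Oligodendrocyte markers summed to 590 to 1380 CPM in mutants and 555 to 1800 CPM in wt, with 1 of 15 called lower. The part of these markers in the 4-month values was not tested.

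In 5HT neurons no immediate early gene was called in either month. At 8 months 0.397% of 15633 genes tested were called, by adjusted p. By unadjusted p under 0.05, 3 of the 9 immediate early genes tested passed, and 4.9% of all genes did. Fos was at 39.3, 50.3, 77.1 and 83.6 CPM in the 4 mutants, against 3.74, 13.6, 25.8 and 34.3 CPM in the 4 wt libraries. The Fos groups did not overlap, as held for 3.84% of genes tested in this direction. Its log2 fold change was 1.63 ± 0.72 (unadjusted p = 0.0342, adjusted p = 0.946, edgeR). Fosl2 was at 12, 12.8, 28.7 and 38.6 CPM in mutants and at 1.87, 1.92, 5.35 and 12.5 CPM in wt, so that only the highest wt library reached the mutants. Its log2 fold change was 2.26 ± 0.92 (unadjusted p = 0.0223, adjusted p = 0.771, edgeR). With only the 8-month 5HT libraries in the fit, Fosl2 was called at 2.45 (adjusted p = 0.0202, edgeR) among 1.43% of all genes, and Fos gave 1.48 (0.0892).

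Egr1 in 8-month 5HT neurons was at 4.5, 5.27, 13.4 and 18.7 CPM in mutants and at 1.44, 1.87, 4.02 and 5.96 CPM in wt, with a log2 fold change of 1.71 ± 0.80 (unadjusted p = 0.0457, adjusted p = 1, edgeR). Nr4a1 was at 23.2, 25.3, 40.6 and 53.5 CPM in mutants and at 11.7, 13.5, 22.2 and 33.4 CPM in wt, a log2 fold change of 0.61 ± 0.47. Both genes overlapped between genotypes. Arc gave 0.24, Jun 0.60, Junb 1.17, Fosb 0.33 and Egr3 2.05, all with an adjusted p of 1 by edgeR. The 9 genes tested were all positive, with a median log2 fold change of 1.17, against 0.01 over all genes tested. The 8 serotonergic identity genes summed to 1220 to 1620 CPM in these mutants and 5420 to 6990 CPM in wt, without overlap, and 3 of the 8 were called lower. The dopaminergic identity genes summed to 1560 to 1800 CPM in these mutants and 3840 to 4210 CPM in wt, also without overlap. Of the 8 dopaminergic genes tested, 2 were called lower (Slc18a2 and Ddc). Endothelial and mural markers had a median sum of 130 CPM and a highest of 215 CPM in these mutants, against 124 and 127 CPM in wt, and astrocyte markers to 986 to 1130 CPM and 864 to 1230 CPM, with none called. Microglia markers summed to 88.7 to 114 CPM in mutants and 134 to 202 CPM in wt without overlap, none of the 12 was called, and their part in the values was not tested.

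At 4 months in 5HT neurons, 0.0128% of genes tested were called, and no immediate early gene had an unadjusted p under 0.05, which 6.4% of all genes had. Fos was at 0.799, 13, 16.6 and 17.3 CPM in mutants and at 2.49, 4.54, 18.6 and 42.9 CPM in wt, with a log2 fold change of -0.64 ± 0.77 (adjusted p = 0.966, edgeR). Nr4a1 was at 14.2, 19.4, 20.4 and 25.3 CPM in mutants and at 2.83, 10, 11 and 30.2 CPM in wt (0.82 ± 0.48, adjusted p = 0.858). The genotypes overlapped in all 10 genes, while 1.45% of genes tested did not overlap with mutants above wt and 1.29% with mutants below. DESeq2 also called none of them in 5HT neurons of either age.

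The summed level of the 10 genes puts the months side by side. It was 137 to 250 CPM in mutant and 31.7 to 112 CPM in wt mDA neurons at 8 months, and 143 to 227 CPM in mutant and 49.7 to 122 CPM in wt 5HT neurons at 8 months. At 4 months it was 72.7 to 254 CPM in mutant and 60.3 to 80.3 CPM in wt mDA neurons, and 62.6 to 109 CPM in mutant and 58 to 118 CPM in wt 5HT neurons. The genotypes overlapped at 4 months and not at 8 months in both neuron types. In 8-month mDA mutants the highest means were those of Nr4a1 (47.3 CPM), Fos (43.4 CPM), Egr1 (30 CPM) and Jun (26 CPM).

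**Figure D5:**
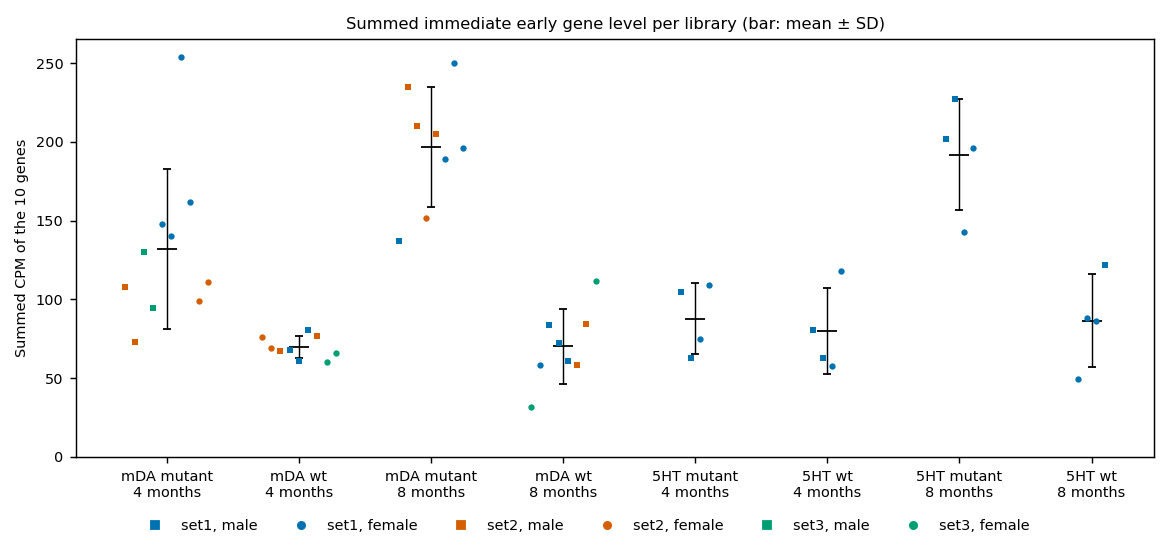
Summed CPM of the 10 immediate early genes per library (vertical) by neuron type, age and genotype, with the mean ± SD; colours give the sequencing set, squares males and circles females. At 8 months mutants lie at 137 to 250 CPM (mDA) and 143 to 227 CPM (5HT), above all wt libraries of their neuron type, and at 4 months the genotypes overlap.

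The difference between the months was not itself called for any of these genes. For the genotype effect at 8 minus 4 months, 6.11% of genes were called in mDA neurons and 0.0128% in 5HT neurons, and 21% and 3.97% had an unadjusted p under 0.05. In mDA neurons the effect differed by 1.26 ± 0.55 for Junb (unadjusted p = 0.0274, adjusted p = 0.173), 1.16 ± 0.56 for Arc (0.0433, 0.221) and 0.81 ± 0.79 for Fos (0.308, 0.609) on the log2 scale, by edgeR. In 5HT neurons it differed by 2.27 ± 1.02 for Fos (unadjusted p = 0.0371, adjusted p = 1). Nor did the genotype effect in mDA minus that in 5HT pass the test for any of the 10 genes, at 4 months (0.0925% of genes called) or at 8 months (0.179%), and none had an unadjusted p under 0.05, as 9.46% of all genes had at 4 months and 7.69% at 8 months. At 8 months this difference was 0.55 ± 1.02 for Fos, 0.07 ± 0.81 for Egr1, 0.73 ± 0.54 for Nr4a1 and 1.29 ± 0.78 for Arc. These errors leave room for differences of more than 1 log2 unit in either direction for Fos.

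Among wt neurons, Fos was lower in mDA than in 5HT neurons, the only one of 9 genes tested that was called, where 10.4% of all genes tested were called lower and 21.7% were called in either direction. Wt mDA neurons averaged 5.7 ± 5.04 CPM of Fos at 4 months (n = 9) and 7.17 ± 4.44 CPM at 8 months (n = 8), against 17.1 ± 18.6 and 19.4 ± 13.4 CPM in wt 5HT neurons (SD, n = 4 each). The log2 fold change of mDA over 5HT was -1.46 ± 0.47 (adjusted p = 0.0239, edgeR), and with the 4-month libraries alone it was -1.1 (0.334). Arc gave -0.78 ± 0.37 (unadjusted p = 0.0419, adjusted p = 0.134) and Egr1 0.86 ± 0.44 (adjusted p = 0.163). Between 8 and 4 months, no gene of the 10 and no gene at all was called in wt neurons of either type by edgeR, while 1204 genes in mDA and 964 in 5HT neurons had an unadjusted p under 0.05, none of them an immediate early gene.

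Few genes of related lists were called in mutant mDA neurons. Of 25 other rapid primary response genes, 22 were tested at 8 months, and 1 was called higher: Dusp1, a phosphatase that switches off the MAP kinases, at 36.1 ± 14 CPM in mutants and 16.1 ± 6.22 CPM in wt (SD, n = 8 each; log2 fold change 0.96 ± 0.28, adjusted p = 0.0405, edgeR). The median of those 22 was 0.50. Of 8 further members of the FOS, JUN, ATF, EGR and NR4A families, 3 were tested and 1 was called, lower: Nr4a2, which is also a dopaminergic identity factor, at 149 ± 17.5 CPM in mutants and 200 ± 41.5 CPM in wt (-0.53 ± 0.15, adjusted p = 0.0271). Npas4, a factor induced by calcium entry in neurons, had a log2 fold change of 1.05 ± 0.33 (adjusted p = 0.0604). None of 14 activity-regulated effector genes and none of 23 upstream factors and kinases was called, with medians of 0.04 and -0.07. Of 10 heat shock genes, 1 was called higher, Hspa8, a constitutive chaperone, at 623, 1030 and 1270 CPM in mutants (lowest, median, highest) and 370, 647 and 1060 CPM in wt (0.76 ± 0.20, adjusted p = 0.0205). All 10 had a positive log2 fold change, with a median of 0.4, against 0.02 over all genes tested. At 4 months in mDA neurons and at both ages in 5HT neurons, none of these 5 lists held a called gene. Few genes of any kind were called there: 1.17% in mDA neurons, and 0.0128% (4 months) and 0.397% (8 months) in 5HT neurons. In 8-month 5HT neurons the other family genes summed to 23.4 to 36.3 CPM in mutants and 5.83 to 9.75 CPM in wt. The other primary response genes summed to 424 to 485 CPM and 288 to 368 CPM, both lists without overlap. The sums of the effector, upstream and heat shock lists overlapped. Within the family list, Nr4a2 was at 5.55, 10.1, 17.3 and 18.5 CPM in 8-month 5HT mutants and at 0, 0.699, 1.38 and 2.35 CPM in wt. Its log2 fold change there was 3.53 (adjusted p = 0.207, edgeR), opposite in direction to that in mDA neurons. For the genotype effect in mDA minus 5HT at 8 months, 1 of 6 family genes tested was called, lower.

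Pairs of the 10 genes were also set against each other within groups. With each library's log2 CPM centred on its group, the 45 pairs had a median Pearson r of 0.04 (-0.29 to 0.50, 25 positive) over 35 mDA libraries and 0 (-0.73 to 0.74, 20 positive) over 16 5HT libraries. Fos and Egr1 had r = 0.50 in mDA and 0.60 in 5HT neurons. The genes outside the list whose centred levels were most like the mean of the 10 were G6pc3 (r = 0.63), Lztfl1 (0.63), Dusp16 (0.61), Ppp1r3f (0.61) and Traf3ip1 (0.60) in mDA neurons, the highest of 14936 genes compared, and without the 2 farthest libraries they gave 0.40 to 0.49. In 5HT neurons they were Sult2b1 (r = 0.88), Gm14288..3 (0.84), Lsm7 (0.83), Rpap2 (0.82) and Ankrd44 (0.82) of 14601 genes. These libraries share sets and differ in depth, so the values only describe them.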

How the data were processed

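Whole-gene read counts of 51 Smart-seq2 libraries were deposited by the authors as 1 table of raw counts. The submitters' processing notes name STAR 2.7.0a and the genome mm10 (GRCm38). How reads were assigned to genes, and whether strand was kept, is not given in the sources used here. All sample columns were used. The 10 genes and the other lists were chosen with earlier results of these data known. Counts were tested with edgeR 4.0.16 (R 4.3.3): TMM, filterByExpr with a minimum count of 10, robust quasi-likelihood F tests and Benjamini-Hochberg adjustment over all genes tested, with a threshold of 0.05. The mDA fit held 35 libraries and had terms for sex and for the set nested in age. The 5HT fit held 16 libraries of 1 set with a sex term. Neuron types were compared over all 51 libraries, and wt neuron types over 25, where neuron type, strain and sequencing cannot be told apart. Whether a set label means the same run at both ages is not stated. SEs were taken from log2 fold change and F and are approximate. Alternatives used RLE size factors, no filter, DESeq2 1.42.0, other terms, single sets and leaving out each library. For log2 levels, 1 CPM was added. Library totals ranged between 1644460 and 12250492 counts. No libraries of a group were identical (lowest chi-square per degree of freedom 6.97). Each library is its own animal number. The named genes are all 10 genes, Eed, up to 4 called genes of each other list, and the 5 most like genes. The tests were also run on simulated counts with planted changes. Those counts had no set or sex differences, so they cannot check calls in libraries that differ in these.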

Additional observations from a re-analysis of the deposited data

Results flagged for a closer look

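In 12 of 80 gene and group pairs, the gap between 1 library and its nearest neighbour took up most of the group's range. A rate of 1 in 20 would give about 4, but whether that rate holds for low, skewed levels such as these was not tested. An excess over chance therefore cannot be read from the 12. In 4-month mDA mutants, D192 had 66.2 CPM of Egr1 (next 23.2) and 31.2 CPM of Egr3 (next 6.19), and D226 had 6.74 CPM of Egr2 (next 2.87). In 4-month mDA wt, D296 had 3.97 CPM of Egr3. In 8-month mDA wt, D833 had 43.1 CPM of Nr4a1 (next 25), and C250, the library with the fewest counts, had 3.83 CPM of Egr2. In 4-month 5HT mutants, S427 had 4.0 CPM of Egr2 and 12.8 CPM of Egr3, and S429 had 6.1 CPM of Fosb. In 4-month 5HT wt, S369 had 9.09 CPM of Egr3. In 8-month 5HT wt, S382 had 1.81 CPM of Egr2, and S381 had 19.6 CPM of Jun where the other 3 all had 18.2, a small difference that stands out only because those 3 are so alike. Of the 12 values, 9 are of Egr2, Egr3 or Fosb, which all had group means of at most 4.98 CPM. The cause was not tested.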

How the results depend on the processing

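The number of immediate early genes called in mDA neurons at 4 months was 3 (1.17% of all genes tested were called). It was 4 with DESeq2 (2.28% of all genes) and within set1 (11.2%), 1 with no set term (0.37%), and 0 within set2 (0.0594%), within set3 (0.495%), without the set1 mutants (0.127%) and without the female mutants (0.0787%), an alternative chosen after seeing the data. At 8 months the number was 4 (4.32% of all genes). It was 6 with DESeq2 (6.87%), 5 with no set term (5.2%), 2 with no filter (2.89%), 2 within set1 (4.34%), 0 within set2 (0.639%) and 1 without D161, D170 and D176 (5.5%), also chosen after seeing the data. In 5HT neurons at 8 months, 1 was called with only that age in the fit (1.43% of all genes). Of wt mDA against wt 5HT, 0 were called at 4 months alone (11% of all genes), against 1 over both ages (21.7%). Leaving out each library gave 1 to 3 calls in mDA neurons at 4 months (1 without D294, D296, C240, C241, D237, D238, D942 or C269), 2 to 4 at 8 months (2 without C45, C51, D276, D107 or D147) and 0 to 0 in 5HT neurons at both ages. Nr4a1 passed in 19 of 19 and 16 of 16 such fits at 4 and 8 months, Egr1 in 5 of 19 and 16 of 16, Fosl2 in 9 of 19 at 4 months, and Fos in 10 and Arc in 7 of 16 at 8 months.

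No direction turned in mDA neurons at 8 months. Uncalled log2 fold changes in mDA neurons at 4 months turned for Junb (-0.03 with no set term, -0.17 in set2, -0.11 in set3, -0.18 without the set1 mutants, -0.17 without the female mutants), Jun (-0.06 in set1, -0.08 in set2, -0.02 without the set1 mutants), Arc (-0.23 in set1) and Fos (-0.28 in set2). With no set term, the mDA age difference of Nr4a1 was -0.08 and the wt age effect of Junb -0.21. In 5HT neurons at 4 months, Fosb gave -0.11 with no sex term, and with only that age Fos gave 0.0046 and Jun 0.13. Wt mDA against wt 5HT at 8 months alone gave -0.31 for Jun and -0.13 for Junb. Leaving out each library gave ranges across 0 for Junb in mDA neurons at 4 months (-0.11 to 0.25), for Arc (-0.28 to 0.91), Egr1 (-0.24 to 0.58), Egr3 (-2.09 to 3.56), Fos (-1.22 to 0.32), Fosb (-4.93 to 0.91) and Jun (-0.96 to 0.51) in 5HT neurons at 4 months, and for Arc (-0.63 to 0.60) and Fosb (-0.65 to 1.68) at 8 months. The cause was not tested. No paired analysis was possible because the groups share no replicate numbers. Fosb, Egr2 and Egr3 lie near the depth limit of single libraries.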
